A study of Mus musculus with 6 samples.

Results

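The 10 genes described here encode extracellular and membrane parts of the Wnt pathway together with a feedback gene. Wif1, Sfrp1, Sfrp2, Frzb and Dkk3 are secreted proteins of the inhibitor families, Fzd1, Fzd2 and Fzd4 are Frizzled receptors, Lrp6 is their co-receptor, and Axin2 is both a brake on the pathway and a gene that the pathway switches on. The genes were chosen by their place in the pathway and on their measured difference between the 2 genotypes of this series, of which that of Wif1 was already known to be large. Values of the 10 genes in that comparison are therefore given as a description: no p-value is printed for them, and nothing is read from whether they passed the threshold used for all genes. All 10 were measured, with 23 of the 45101 probe sets on the array, among 18193 genes with a named probe set. Where a gene has several, the one brightest on average is called its main probe set.

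The data are 6 one-colour arrays of heart RNA from mice aged 3 months. The 3 Des-/- arrays came from mice of the 129SV strain without desmin, the intermediate filament protein that links the contractile apparatus of muscle. The 3 TNFαDes-/- arrays came from mice that also lack desmin and in addition overexpress the cytokine TNF-α in the heart, on a mixed 129SV/C57 background. All hearts in the comparison therefore lack desmin. The strain differs along with the transgene, and their effects cannot be told apart. The labels call the overexpression cardiac-specific and name no promoter. Per the labels, RNA of 3 hearts per genotype was pooled before labelling. The series text gives n = 3 mice. Whether the 3 arrays of a group came from separate animals or are repeats of a pool is not clear. P-values therefore measure only the spread between arrays, which may be technical.

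Wnt ligands are secreted proteins that bind a Frizzled receptor and the co-receptor Lrp5 or Lrp6 on the cell surface. In the absence of a ligand, a complex of Axin, Apc and the kinase Gsk3 marks β-catenin for destruction; ligand binding stops this, and β-catenin then acts with TCF and LEF proteins on target genes. Wif1 and the secreted Frizzled-related proteins (Sfrp1, Sfrp2 and Frzb) bind ligands outside the cell. In adult heart the pathway is known for low activity at rest and for a return after injury.

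Values are log2 signals, so a difference of 1 is a doubling, and differences are TNFαDes-/- minus Des-/-. The arrays differed in the spread of their bright signals: the 99th percentile was 12.27 on Des-/- replicate 1, 11.75 and 11.69 on Des-/- replicates 2 and 3, and 12.26 to 12.31 on the TNFαDes-/- arrays, while the array medians lay between 5.02 and 5.08. Differences after quantile normalization, which gives all arrays 1 distribution, are therefore given where they change a reading. The engineered genes did not check the labels. Tnf read 5.87 ± 0.09 on Des-/- and 5.94 ± 0.19 on TNFαDes-/- arrays (SD, n = 3), and where its probe set lies relative to the transgene is not given. Des read 8.40 ± 0.06 and 8.79 ± 0.08, and its probes have no stated place relative to the deleted part. All 8 cardiomyocyte markers read above the array median on every array. In whole heart RNA, fewer cells of a type and less RNA per cell cannot be told apart.

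Among the secreted inhibitors, Wif1, Dkk3 and Frzb were higher in TNFαDes-/- hearts, Sfrp2 was lower, and the probe sets of Sfrp1 gave differences from -0.26 to 0.19. Fzd2 was the Frizzled with the largest difference. The differences of Fzd1, Axin2 and Lrp6 were small, and the sign of that of Fzd4 as deposited rested on 1 array. In the limma fit across all genes, 4 of the 10 genes passed an adjusted p of 0.05 in the upward direction (Wif1, Dkk3, Frzb and Fzd2) and 1, Sfrp2, in the downward direction. Over all genes 15.2% passed upward and 6.05% downward, 21.3% in all. The genes were chosen with these differences known, so this count only describes them. The median difference of the 10 main probe sets was 0.17, beside 0.04 over all genes. The groups did not overlap for 7 of the 10 main probe sets, beside 38.0% of all genes.

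**Figure D1:**
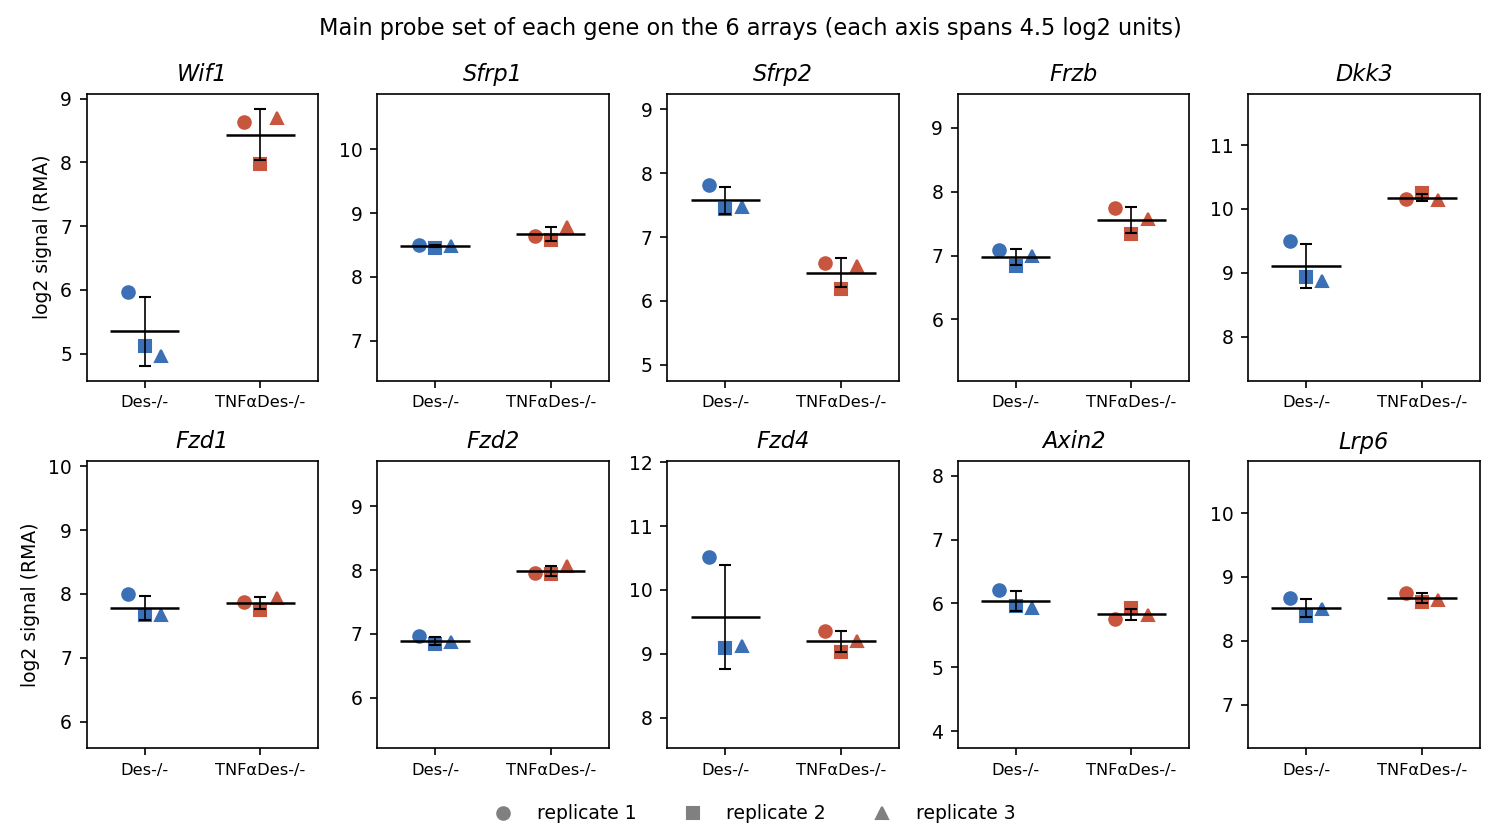
Each panel plots the log2 signal of the main probe set of 1 gene on the 6 arrays, with the genotype on the x axis and a symbol for each replicate; lines are group means and bars are SD (n = 3). Wif1, Frzb, Dkk3 and Fzd2 lie higher and Sfrp2 lower on all TNFαDes-/- arrays, and Des-/- replicate 1 stands above its group for Fzd4 (10.52, against 9.09 and 9.12).

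Wif1 encodes Wnt inhibitory factor 1, which binds Wnt ligands through its WIF domain. Its only probe set, 1425425_a_at, read 5.97, 5.12 and 4.97 on the Des-/- arrays and 8.64, 7.98 and 8.69 on the TNFαDes-/- arrays. The lowest TNFαDes-/- array thus lay 2.01 above the highest Des-/- array. The difference in log2 signal was 3.08 ± 0.28 (SE). Each group held 1 array apart from the other 2: Des-/- replicate 1 was higher than its group and TNFαDes-/- replicate 2 lower. On Des-/- replicates 2 and 3 the signal lay close to the array median, on replicate 3 below it. The table holds no detection calls, so the Des-/- level is not shown to be above background; the difference is one of signals, and no fold is given.

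Dkk3 belongs by sequence to the Dickkopf family, but its effect on Wnt signalling is less settled than that of Dkk1. The main probe set, 1417312_at, read 9.50, 8.93 and 8.87 on the Des-/- arrays and 10.15, 10.25 and 10.14 on the TNFαDes-/- arrays. All TNFαDes-/- arrays were higher and lay close together, while Des-/- replicate 1 stood above the other Des-/- arrays. The difference was 1.08 ± 0.16 (SE), or 2.11-fold. The second probe set gave 1.25 ± 0.12, from 7.97, 7.78 and 7.57 to 8.96, 9.08 and 9.03. After quantile normalization the differences were 0.84 and 1.08.

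Frzb, also called Sfrp3, was the secreted Frizzled-related gene with a higher level in TNFαDes-/- hearts. Its main probe set, 1416658_at, read 7.09, 6.84 and 6.99 on the Des-/- arrays and 7.74, 7.34 and 7.58 on the TNFαDes-/- arrays. The groups were apart by 0.24 between the nearest arrays, and TNFαDes-/- replicate 2 was the lowest of its group. The difference was 0.58 ± 0.13 (SE), or 1.49-fold. The second probe set gave 0.27 ± 0.12, also without overlap, but TNFαDes-/- replicate 2 (5.29) lay just above the highest Des-/- array (5.28). Frzb is not in the count of 4 given above without Des-/- replicate 2 (difference 0.51), TNFαDes-/- replicate 1 (0.48) or TNFαDes-/- replicate 3 (0.56), nor against a fold of 1.2.

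Sfrp2 moved the opposite way to Frzb and Wif1. It encodes a secreted Frizzled-related protein made by fibroblasts and other stromal cells. Its only probe set, 1448201_at, read 7.82, 7.44 and 7.47 on the Des-/- arrays and 6.60, 6.18 and 6.54 on the TNFαDes-/- arrays. Every TNFαDes-/- array was lower, by 0.84 between the nearest arrays. The difference was -1.14 ± 0.15 (SE), or 2.20-fold lower, and was the 127th largest downward difference among all genes. It was -1.22 after quantile normalization.

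Sfrp1 showed little difference across its 5 probe sets. The main probe set, 1428136_at, read 8.50, 8.46 and 8.49 on the Des-/- arrays and 8.64, 8.58 and 8.79 on the TNFαDes-/- arrays, without overlap, with a difference of 0.18 ± 0.10 (SE). This separation was small beside the scaling: the difference was 0.02 after quantile normalization. Of the other probe sets, 3 gave 0.19, 0.01 and 0.19. The last, 1460187_at, gave -0.26 ± 0.35, where Des-/- replicate 1 read 8.51 and the other 5 arrays read at most 7.31.

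The Frzb and Wif1 promoters are shown because both genes were higher and both have an entry in the promoter table. Sequences are from RefSeq (GRCm38.p6), 250 bases up to the base before the annotated start, 5′ to 3′ on the strand of the gene. The Wif1 sequence lies at chr10:121033754-121034003 on the plus strand and the Frzb sequence at chr2:80447397-80447646 on the minus strand. Capitals mark matches on either strand to the GC box GGGCGG, the TATA box TATAAA or the TCF/LEF core CTTTGA.
Wif1: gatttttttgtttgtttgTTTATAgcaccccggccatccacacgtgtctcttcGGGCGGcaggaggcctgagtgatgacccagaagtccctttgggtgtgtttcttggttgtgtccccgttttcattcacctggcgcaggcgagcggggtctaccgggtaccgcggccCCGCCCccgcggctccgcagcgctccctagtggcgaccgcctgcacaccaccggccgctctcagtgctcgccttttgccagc
Frzb: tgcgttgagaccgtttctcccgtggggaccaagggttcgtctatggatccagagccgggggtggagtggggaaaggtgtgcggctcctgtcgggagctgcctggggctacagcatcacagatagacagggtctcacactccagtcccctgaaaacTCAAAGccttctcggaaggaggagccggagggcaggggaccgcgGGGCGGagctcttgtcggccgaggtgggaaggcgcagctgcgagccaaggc

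Wif1 held 2 GC boxes and 1 TATA box match on the opposite strand, the latter from base -232 to -227 relative to the start, and no CTTTGA. Frzb held 1 CTTTGA core on the opposite strand, from base -95 to -90, and 1 GC box. Entries were found for 6 of the 10 genes (also Sfrp2, Fzd1, Fzd4 and Axin2). Among these 6, CTTTGA was found for Frzb and Fzd1, GGGCGG for Wif1, Frzb, Fzd4 and Axin2, and TATAAA for Wif1 and Fzd1. Sfrp2 had no match to any of the 3. The windows of Sfrp2 and Axin2 lay inside the annotated gene, past its first base. For Sfrp2 and Axin2 the bases before the gene were therefore not searched. Over all 32851 promoter windows of this length, 13.8% held CTTTGA, 32.7% held GGGCGG and 12.4% held TATAAA. The NF-κB consensus, present in 7.25% of all windows, had no match in these 6. Fzd4 held 7 GC box matches, of which 2 share a base. A match is a description of the letters and not a site.

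Among the Frizzled receptors, Fzd2 was higher, and Fzd1 and Fzd4 had no steady difference. The main probe set of Fzd2 read 6.97, 6.85 and 6.87 on the Des-/- arrays and 7.95, 7.94 and 8.07 on the TNFαDes-/- arrays. Both groups were tight and lay 0.98 apart between the nearest arrays. The difference was 1.09 ± 0.10 (SE), or 2.13-fold. That probe set, 1418533_s_at, is of the kind that can also match other transcripts. The second probe set, which is not, gave 0.94 ± 0.10. The third and dimmest gave 0.19 ± 0.11 with overlapping groups.

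Fzd1 (1437284_at) read 8.004, 7.67 and 7.66 on the Des-/- arrays and 7.87, 7.75 and 7.94 on the TNFαDes-/- arrays, so the groups overlapped. Its difference was 0.07 ± 0.12 (SE), and -0.06 after quantile normalization. The dimmer probe set gave -0.30 ± 0.13 at levels close to the array medians. No direction can be given for Fzd1.

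Fzd4, the receptor of norrin as well as of Wnt ligands and prominent in endothelium, read (main probe set 1419301_at) 10.52, 9.09 and 9.12 on the Des-/- arrays and 9.35, 9.02 and 9.20 on the TNFαDes-/- arrays. Des-/- replicate 1 stood 1.41 above the mean of the other 2 Des-/- arrays. The difference as deposited was -0.39 ± 0.34 (SE), and 0.09 ± 0.11 without Des-/- replicate 1, so the deposited sign rested on that array. After quantile normalization the difference was -0.59, and -0.24 ± 0.10 with that array also left out. The second probe set, 1434756_at, did not show the high array (8.52, 8.44 and 8.43 in Des-/-). It gave 0.11 ± 0.09 as deposited and -0.05 after quantile normalization. The third lay below the array median on every array and gave -0.48 ± 0.11. The levels of endothelial markers moved as well: 4 of the 9 measured fell (7 after quantile normalization), among them Egfl7 (-0.65 ± 0.11; limma adjusted p = 0.00391), and 0 rose. Their part in the Fzd4 values was not tested.

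Lrp6 (1428500_at), the co-receptor, read 8.67, 8.38 and 8.49 on the Des-/- arrays and 8.75, 8.61 and 8.64 on the TNFαDes-/- arrays. The groups overlapped, with a difference of 0.15 ± 0.11 (SE), or -0.02 after quantile normalization. The second probe set gave -0.06 ± 0.10.

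Axin2, which scaffolds the destruction complex and is the most used transcript readout of β-catenin activity, read (main probe set 1436845_at) 6.21, 5.97 and 5.93 on the Des-/- arrays and 5.75, 5.92 and 5.82 on the TNFαDes-/- arrays. The nearest arrays of the groups lay only 0.0039 apart. The difference was -0.20 ± 0.11 (SE) and -0.21 after quantile normalization. The second probe set gave -0.34 ± 0.11, but read below the array median on all 6 arrays. Both probe sets were lower on all TNFαDes-/- arrays.

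**Figure D2:**
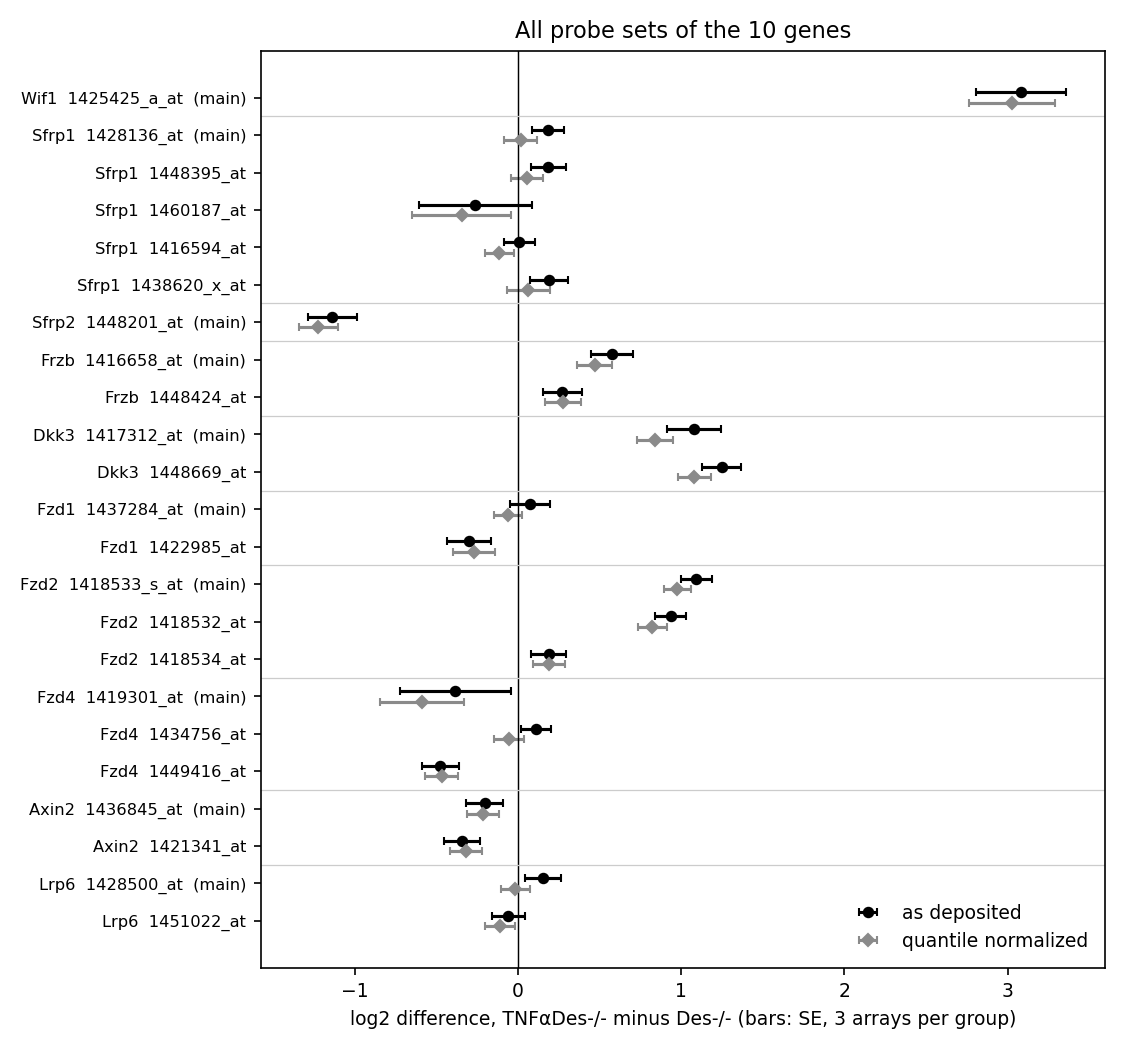
The 23 probe sets of the 10 genes are on the y axis and the log2 difference, TNFαDes-/- minus Des-/-, on the x axis; circles are deposited values, diamonds values after quantile normalization, and bars SE. Probe sets agree in sign for Dkk3, Frzb, Fzd2 and Axin2. As deposited, Sfrp1, Fzd1, Fzd4 and Lrp6 have probe sets of both signs. After quantile normalization only Sfrp1 does, and all those of Fzd1, Fzd4 and Lrp6 are negative.

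Of the 8 genes with several probe sets, 4 had probe sets of both signs as deposited (Sfrp1, Fzd1, Fzd4 and Lrp6). After quantile normalization all probe sets of Fzd1, Fzd4 and Lrp6 were negative, some by less than their SE. The main probe sets of the 10 genes also shared an order of arrays within the groups, which the comparison of genotypes does not use. Des-/- replicate 1 was the highest Des-/- array for all 10 main probe sets, beside 46.4% of all genes. TNFαDes-/- replicate 2 was the lowest of its group for 8 of the 10, beside 39.6% of all genes; the exceptions were Dkk3 and Axin2, where it was the highest. The shares over all genes include dim genes, and Des-/- replicate 1 had the highest 99th percentile of its group (12.27). For the second probe sets of Frzb and Axin2, and for 1438620_x_at of Sfrp1, Des-/- replicate 1 was instead the lowest Des-/- array. For the third probe set of Fzd4 it lay between the other Des-/- arrays. These orders are descriptions of 6 arrays and carry no test, and the part of the scaling was not tested. Over 18 alternative settings the differences had 1 sign for Wif1 (2.89 to 3.46), Dkk3 (0.81 to 1.28), Fzd2 (0.74 to 1.13), Frzb (0.42 to 0.74), Sfrp2 (-1.23 to -0.94) and Axin2 (-0.27 to -0.12). They had both signs for Sfrp1 (-0.07 to 0.23), Fzd1 (-0.11 to 0.19), Fzd4 (-0.64 to 0.10) and Lrp6 (-0.05 to 0.27).

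Genes with the most similar profile were named by the distance between their 6 log2 values, each set relative to its own mean. For Wif1 they were Zdhhc2 (distance 0.59), Ang (0.65) and Maoa (0.68), with differences of 3.07, 3.04 and 3.09. For Frzb they were Rasl2-9, Brix1 and Atp6v0b (distances 0.10, 0.11 and 0.12). For Fzd2 they were Tmem144, Col15a1 and Map3k6 (distances 0.09, 0.12 and 0.13). With 6 arrays in 2 groups, such likeness follows mostly from the size of the difference.

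The rest of the pathway was read from 8 lists of other genes by role, 116 in all, of which 114 were measured; Kremen2 and Tcf7 were not analysed here. In the same fit, 17 of the 114 rose and 9 fell, with 88 not called, beside 15.2% upward and 6.05% downward over all genes. Their median difference was -0.03, against 0.04 for all genes. After quantile normalization 12 rose and 13 fell, against 12.0% and 10.4% of all genes; 11 genes were called higher and 9 lower under both scalings. Counts of other Wnt genes called higher and lower also changed with the arrays used. They were 29 and 12 without Des-/- replicate 1, 10 and 4 without replicate 2, and 9 and 4 without replicate 3. For TNFαDes-/- they were 11 and 3 without replicate 1, 14 and 11 without replicate 2, and 9 and 3 without replicate 3. Of the 26 genes called, 12 kept their call without each array. The other 14 (Apc, Cd44, Celsr2, Csnk1e, Ctnnb1, Dact1, Fzd10, Gsk3a, Porcn, Tle1, Trabd2b, Wnt11, Wnt5a and Wnt7a) all lost it without TNFαDes-/- replicate 3 (limma adjusted p from 0.0623 to 0.129). Of these 14, 12 also lost it without Des-/- replicate 2, 13 without Des-/- replicate 3, 12 without TNFαDes-/- replicate 1 and 6 without TNFαDes-/- replicate 2.

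**Figure D3:**
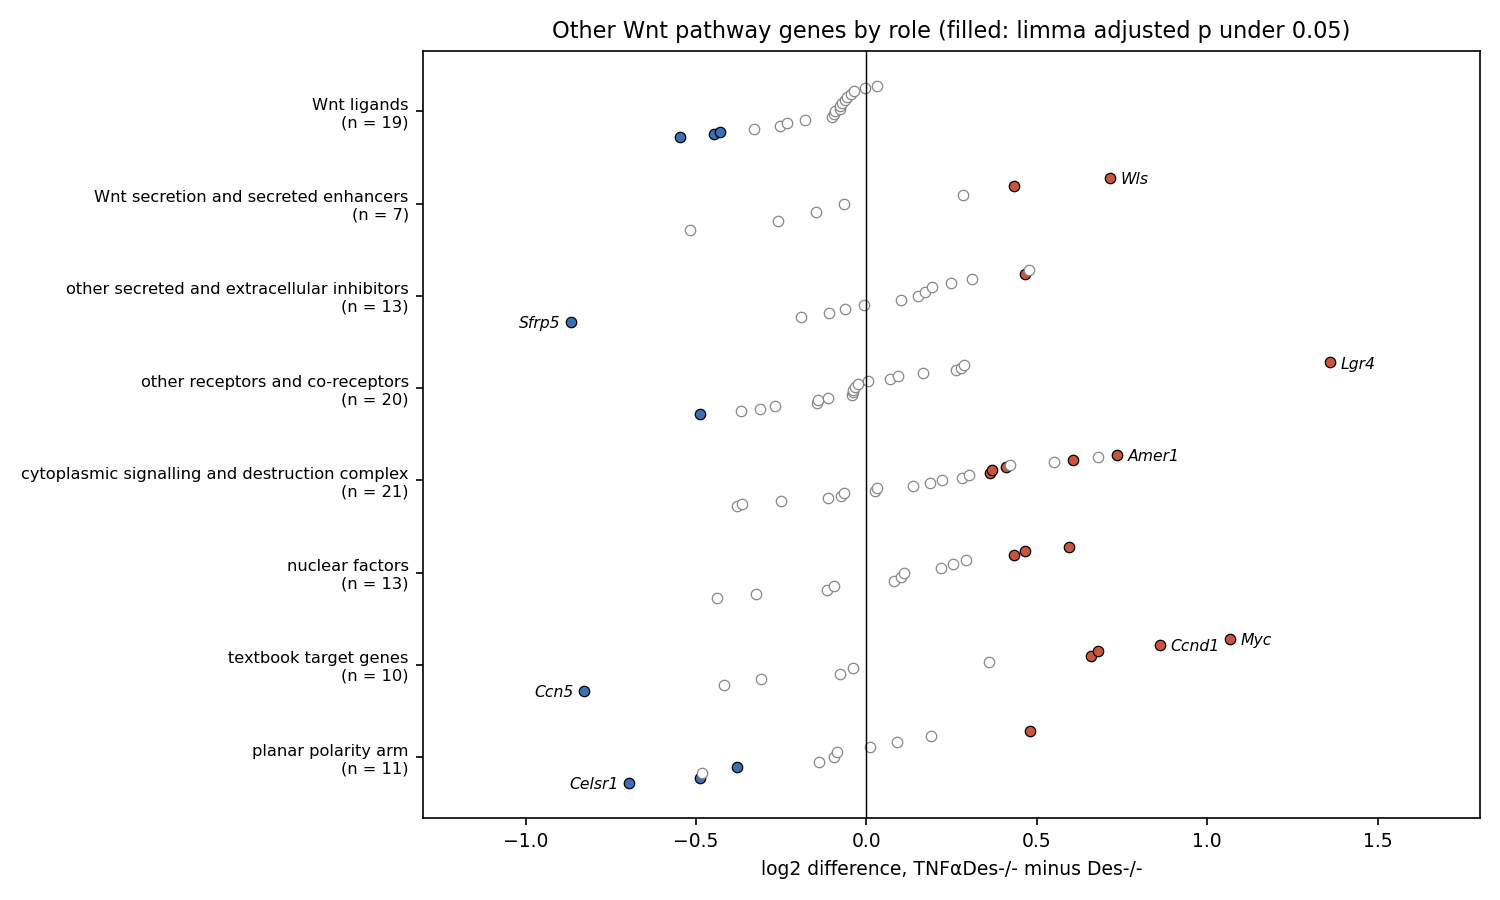
Each point is 1 of 114 other Wnt pathway genes, placed by its log2 difference, TNFαDes-/- minus Des-/-, on the x axis and its role on the y axis; filled points passed the limma test. Filled points of the ligand list are all lower and those of the cytoplasmic and nuclear lists all higher as deposited (after quantile normalization 1 higher and 2 lower in the cytoplasmic list, and 3 higher and 1 lower in the nuclear list), with Lgr4 (1.36) and Myc (1.07) the largest differences.

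Of 19 Wnt ligand genes, 3 fell and 0 rose. Wnt7a fell by 0.55 on the log2 scale (SE 0.13; limma adjusted p = 0.0191), and was the ligand probe set with the highest signal. Wnt11, a ligand of the β-catenin-independent arm, fell by 0.45 (SE 0.12; adjusted p = 0.0309), and Wnt5a, of the same arm, by 0.43 (SE 0.11; adjusted p = 0.0244). With probe sets averaged, Wnt7a gave -0.19 and Wnt5a -0.23, neither called, and the Wnt5a level in TNFαDes-/- hearts (4.92) lay below the array medians. Of the ligands, 9 read below the median of each array. Among 7 genes of ligand release and secreted enhancers, 2 rose and 0 fell; after quantile normalization 3 rose, with Rspo2 added. Wls, the carrier that brings Wnt proteins to the cell surface, read 8.15, 7.86 and 7.76 in Des-/- and 8.78, 8.40 and 8.73 in TNFαDes-/- hearts. It rose by 0.71 ± 0.14 (SE; limma adjusted p = 0.00923); with its probe sets averaged the difference was 0.29 and not called. Porcn, which attaches the lipid that Wnt proteins need, rose by 0.43 ± 0.11 (adjusted p = 0.0286).

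Among 13 other extracellular inhibitors, 1 rose and 1 fell. Sfrp5, a further secreted Frizzled-related gene, read 7.43, 7.03 and 7.34 on the Des-/- arrays and 6.61, 6.51 and 6.09 on the TNFαDes-/- arrays. All TNFαDes-/- arrays were lower, with a difference of -0.87 ± 0.16 (SE; limma adjusted p = 0.00682), and its second probe set gave -0.51. Trabd2b, a membrane protease that cleaves Wnt proteins, rose by 0.47 ± 0.12 (adjusted p = 0.0234), and by 0.29 after quantile normalization, where it did not pass. Sfrp4 stood at -0.19 ± 0.13 and Dkk1 at 0.10 ± 0.10, both not called, and Dkk1 read below the median of each array. Igfbp4, the inhibitor probe set with the highest signal, gave 0.48 ± 0.21 and was not called.

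Of 20 other receptor genes, Lgr4 rose and Fzd10 fell. Lgr4, a receptor of R-spondins that strengthens Wnt responses, read 8.33, 7.78 and 7.71 on the Des-/- arrays and 9.52, 9.18 and 9.20 on the TNFαDes-/- arrays. Its difference of 1.36 ± 0.18 (SE; limma adjusted p = 0.00124) was 2.57-fold, with no overlap, and its dim second probe set gave -0.01. Fzd10 fell by 0.49 (SE 0.14; adjusted p = 0.0360), and gave -0.25, not called, with its probe sets averaged. The other Frizzled genes, Fzd3 and Fzd5 to Fzd9, ranged from -0.37 for Fzd5 to 0.28 for Fzd7, and none was called. Lrp5, the relative of Lrp6, stood at -0.14 ± 0.27.

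Of 21 genes of cytoplasmic signalling, 5 rose and 0 fell as deposited, while 1 rose and 2 fell after quantile normalization. Amer1, a scaffold at the membrane that binds Apc, rose by 0.74 ± 0.12 (SE; limma adjusted p = 0.00323) and by 0.66 after quantile normalization. Ctnnb1, which encodes β-catenin, rose by 0.61 ± 0.17 (adjusted p = 0.0330). Its other probe sets gave 0.07 and -0.52, and the difference was 0.23 and not called after quantile normalization. Gsk3a (0.37), Csnk1e (0.36) and Apc (0.41) also passed as deposited and lost their calls after quantile normalization, and Apc gave -0.15 when its probe sets were averaged. Of 13 nuclear factors, 3 rose and 0 fell as deposited, and 3 rose and 1, Tcf7l2, fell after quantile normalization. Those that rose as deposited were the chromatin remodeller Chd8 (0.60 ± 0.10; adjusted p = 0.00332), the β-catenin cofactor Bcl9l (0.47 ± 0.09; adjusted p = 0.00956) and the co-repressor Tle1 (0.43 ± 0.12). With probe sets averaged Chd8 gave 0.14 and Bcl9l 0.06, and neither passed.

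Textbook target genes moved both ways: 4 of 10 rose and 1 fell, under both scalings. Myc, the growth-promoting transcription factor, read 6.69, 6.72 and 6.64 on the Des-/- arrays and 7.76, 7.72 and 7.76 on the TNFαDes-/- arrays. Its difference was 1.07 ± 0.09 (SE; limma adjusted p = 0.000169), with both groups tight. Ccnd1, the cyclin of entry into the cell cycle, rose by 0.86 ± 0.12 (adjusted p = 0.00198) and on each of its 3 probe sets by at least 0.78. Ccn4, a matricellular protein once named Wisp1, rose by 0.68 ± 0.12 (adjusted p = 0.00565), and the adhesion receptor Cd44 by 0.66 ± 0.17 (adjusted p = 0.0238). Ccn5, its matricellular relative, fell by 0.83 on the log2 scale (SE 0.14; adjusted p = 0.00465). The feedback genes Nkd1 (-0.08) and Nkd2 (-0.31) and the transcription factor Sp5 (-0.04) were not called. In the planar polarity arm 1 of 11 rose and 3 fell as deposited, while 0 rose and 4 fell after quantile normalization, with Prickle1 added. Celsr1 fell by 0.70 (SE 0.13; adjusted p = 0.00599), Celsr2 by 0.49 and Dact1 by 0.38, while Dact3 rose by 0.48 ± 0.09 (adjusted p = 0.00657; 0.30 after quantile normalization and 0.08 with probe sets averaged, both not called).

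Markers of some other heart cell types differed between the genotypes. Over all genes 15.2% were called higher and 6.05% lower as deposited, and 12.0% and 10.4% after quantile normalization. Of 10 fibroblast markers 3 rose, Dcn most (0.93 ± 0.15 SE; limma adjusted p = 0.00307), with Gsn and Col1a2, and 0 fell; after quantile normalization 2 rose and 3 fell. The mean level of that list was 10.75 to 11.29 on the Des-/- arrays and 11.23 to 11.28 on the TNFαDes-/- arrays. For 9 endothelial markers it was 9.15 to 9.48 and 8.90 to 8.96, and for 10 macrophage markers 8.84 to 9.26 and 9.38 to 9.40. Of the macrophage markers 7 rose, C1qa by 0.91 ± 0.14, and Cd68 fell by 1.48. Of 9 smooth muscle and pericyte markers 1 rose, Acta2 (1.89 ± 0.14), and 3 fell; after quantile normalization 1 rose and 6 fell. Of 8 cardiomyocyte markers 0 were called as deposited and 2 fell after quantile normalization. Of 6 epicardial markers 3 fell, with a mean of 6.24 to 6.43 against 5.84 to 6.01, and of 4 adipocyte markers 3 fell, with 6.17 to 6.28 against 5.55 to 5.65. Of 6 lymphocyte and 3 Schwann cell markers 0 were called, and 4 of the 6 lymphocyte markers read below the median of each array. The part of these markers in the values of the Wnt genes was not tested.

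**Figure D4:**
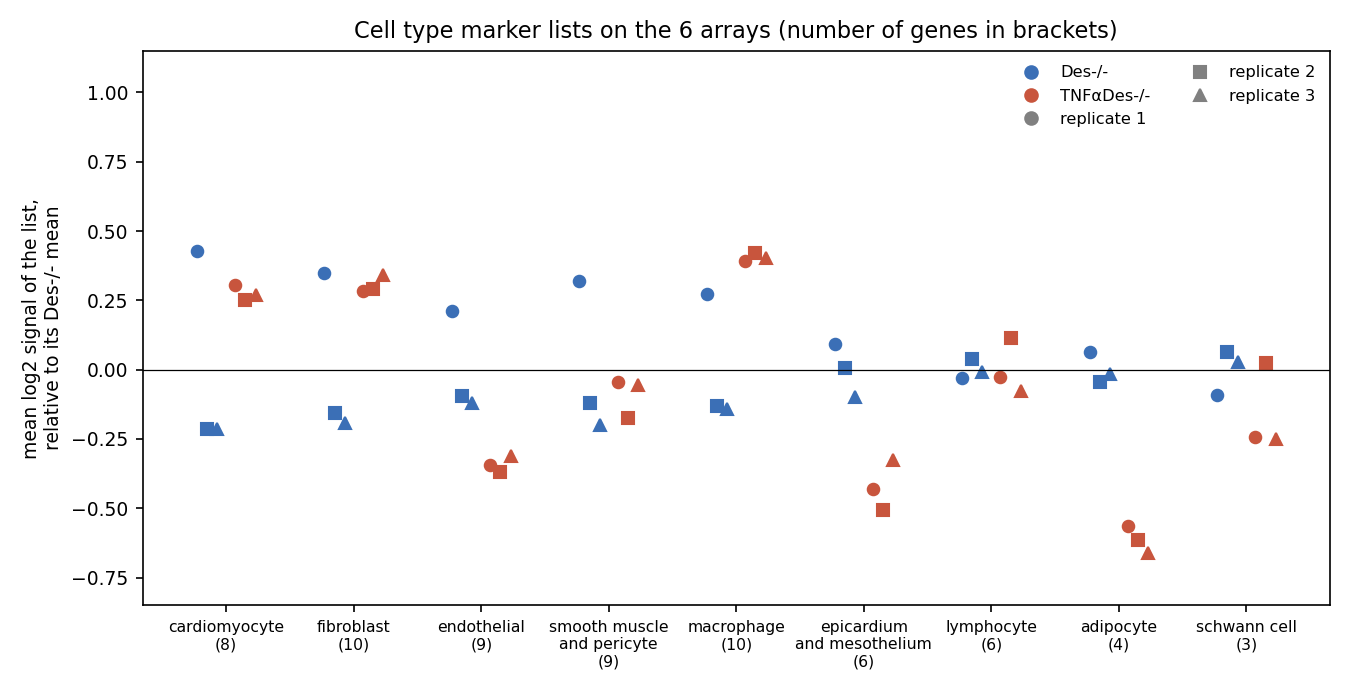
The y axis gives the mean log2 signal of each marker list on 1 array relative to the mean of its 3 Des-/- arrays, and the x axis the cell type with its number of genes; symbols are replicates. Endothelial, epicardial and adipocyte lists lie lower on all TNFαDes-/- arrays and the macrophage list lies higher, while the fibroblast list of TNFαDes-/- (11.23 to 11.28) lies within the Des-/- range (10.75 to 11.29).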

How the data were processed

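Total RNA of hearts was measured on 6 arrays, 3 Des-/- and 3 TNFαDes-/-, grouped and numbered by their titles. The authors deposited log2 values. Per the submitters' processing notes they were made with RMA; no version and no statement on its quantile step were found there. Of 45101 probe sets, 64 are controls, 34945 have 1 gene symbol in the platform annotation, 932 several and 9160 none. Probe sets of the latter 2 kinds were not named. Identifiers of 34741 were found in the RefSeq table, which changed 0 symbols. Each of 18193 genes was represented by its brightest probe set, with no filter.

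The genotypes were contrasted by lmFit and eBayes of limma 3.58.1 (R 4.3.3). P-values were adjusted by Benjamini-Hochberg across the 18193 genes and called under 0.05. The fit was tested on simulated data with known changes. It called 32% of changes of 0.5 on the log2 scale, 74% of changes of 1 and 100% of changes of 2. Of unchanged genes it called 0.0333%. A gene that was not called may therefore still differ. SE of a probe set that is not the main one comes from a fit over all probe sets. The 10 genes, the lists and the tests were chosen with earlier results of these data known. Named were the 10 genes, up to 6 called genes of each of 8 role lists, the brightest ligand, inhibitor and receptor, up to 3 called markers per cell type, and the 3 nearest profiles to Wif1, Frzb and Fzd2; other genes were named after their values were seen. Motifs were searched in the 250 bases before each start. Alternatives covered scaling, the variance model, array weights, a replicate block, probe set choice, a dim filter, a fold threshold and each array left out. Figures were drawn with matplotlib.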

Additional observations from a re-analysis of the deposited data

How the results depend on the processing

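The fit called 3869 genes in all, with 17 of the other Wnt genes higher and 9 lower. Array weights gave 8414, 35 and 20, the test against a fold of 1.2 gave 1222, 4 and 2, and every probe set as a feature gave 6041, 26 and 18 probe sets. Cyclic loess called 16 other Wnt genes lower, and quantile normalization with the first Des-/- array left out, added after seeing the data, called 15. Leaving out 1 array gave 2068 to 5814 genes, 9 to 29 higher and 3 to 12 lower. With the replicate block the counts were 4278, 18 and 12, and the call of Gsk3a was lost. Deviations of arrays with the same number correlated at 0.25, 0.31 and -0.30. Deviations from a mean of 3 arrays depend on each other, so these values cannot settle whether the numbers pair the arrays. Of the 26 other Wnt genes called, 6 (Amer1, Ccn5, Ccnd1, Lgr4, Myc and Sfrp5) kept their call under all 18 alternatives and 20 did not keep it under at least 1; the cause was not tested. The array holds no detection calls, so levels near the array medians are not shown to be above background.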
